A study of Mus musculus with 3 samples.

Results

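The genes described here are 10 that killer lymphocytes use, taken by their symbols from the 28692 genes of the deposited matrices: *Gzma*, *Gzmb*, *Prf1*, *Nkg7*, *Ccl5*, *Ccl4*, *Xcl1*, *Cd160*, *Klrd1* and *Tnfrsf9*. All 10 were found, and the rule names them by symbol without using a measured value. They were followed in T cells that came along with small intestinal crypts, in a single-cell RNA study of the polarity protein CDC42 in the mouse gut epithelium. The mice were adult C57BL/6 animals of 2 to 3 months, and all carried Olfm4-IRES-eGFPCreERT2, a tamoxifen-inducible Cre placed at *Olfm4*, a gene of crypt base stem cells. The control was CDC42+/flox, the KO was CDC42flox/flox, and the rescue was CDC42flox/flox; Yapflox/flox; Tazflox/+, with 1 library each. The control thus carried a floxed allele as well, and whether the Cre acted in lymphocytes was not tested. The sources used here do not say whether and when tamoxifen was given, or whether a library came from 1 animal or from pooled animals. The names KO and rescue follow the short names in the labels, where the control is named Het.

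Intraepithelial lymphocytes are T cells that sit between the cells of the gut lining. In the small intestine most carry the CD8 alpha chain, and many have the gamma-delta form of the T cell receptor, whose delta constant region is encoded by *Trdc*. Those with the alpha-beta receptor may carry CD8 as a pair of alpha and beta chains, the latter encoded by *Cd8b1*. Cytotoxic lymphocytes kill by releasing granules: perforin (*Prf1*) lets granzymes into the target, granzyme B (*Gzmb*) cuts caspases and other proteins, and granzyme A (*Gzma*) is a serine protease with different substrates. *Nkg7* encodes a granule membrane protein. *Ccl5*, *Ccl4* and *Xcl1* encode chemokines, which attract other immune cells. *Cd160* and *Klrd1* (CD94) encode surface receptors shared with natural killer cells, and *Tnfrsf9* encodes 4-1BB, a costimulatory receptor that T cells raise when activated.

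The coordinates are those of GENCODE vM21 on GRCm38, and all 10 are protein-coding. *Gzma* (ENSMUSG00000023132) lies at chr13:113093825-113100981 and *Gzmb* (ENSMUSG00000015437) at chr14:56258838-56262260. *Ccl5* (ENSMUSG00000035042) and *Ccl4* (ENSMUSG00000018930) share chromosome 11, at chr11:83525778-83530518 and chr11:83662584-83664683. *Xcl1* (ENSMUSG00000026573) lies at chr1:164931644-164935527. *Cd160* lies at chr3:96798763-96829351, *Klrd1* at chr6:129591782-129598775, *Nkg7* at chr7:43437073-43438249, *Prf1* at chr10:61297833-61304680 and *Tnfrsf9* at chr4:150914562-150946102.

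RefSeq promoter windows on GRCm38.p6 were matched to 7 of the 10 genes, and not to *Ccl5*, *Ccl4* and *Klrd1*. The 250 bases before the RefSeq start of *Gzma*, *Gzmb* and *Xcl1* are shown, because the granzymes were found in the same cells and *Xcl1* more often in the others. Each is on the minus strand of its chromosome and is printed 5′ to 3′, with motif matches in capitals. The windows are chr13:113100982-113101231, chr14:56262335-56262584 and chr1:164935523-164935772.
Gzma: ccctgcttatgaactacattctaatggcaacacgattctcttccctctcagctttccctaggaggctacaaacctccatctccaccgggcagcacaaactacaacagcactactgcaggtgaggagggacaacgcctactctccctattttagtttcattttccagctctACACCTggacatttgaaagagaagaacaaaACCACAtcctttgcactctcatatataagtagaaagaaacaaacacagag
Gzmb: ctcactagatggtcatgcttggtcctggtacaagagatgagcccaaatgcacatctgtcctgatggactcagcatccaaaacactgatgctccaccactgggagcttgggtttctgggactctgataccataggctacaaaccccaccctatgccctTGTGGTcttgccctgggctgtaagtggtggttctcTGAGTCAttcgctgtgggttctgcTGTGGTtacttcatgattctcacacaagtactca
Xcl1: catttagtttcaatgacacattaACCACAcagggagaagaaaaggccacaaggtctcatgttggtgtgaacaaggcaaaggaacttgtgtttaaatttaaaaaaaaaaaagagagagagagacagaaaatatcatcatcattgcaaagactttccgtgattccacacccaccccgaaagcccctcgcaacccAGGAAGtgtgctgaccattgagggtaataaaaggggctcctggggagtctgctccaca
Of the motifs searched on both strands, the RUNX core (TGTGGT, or ACCACA on the other strand) began at base -50 before *Gzma*, at -93 and -34 before *Gzmb* and at -227 before *Xcl1*, counted back from the transcript start that the RefSeq table uses, with -1 as the last base printed. That start is not the GENCODE gene end given above for *Gzmb*, whose window lies farther out, or for *Xcl1*, whose window overlaps the end of the GENCODE gene. The T-box core (AGGTGT, or ACACCT) began at -80 before *Gzma* and was not matched in the other windows printed. The AP-1 motif (TGANTCA) began at -58 before *Gzmb*, and the ETS core (AGGAAG, or CTTCCT) at -58 before *Xcl1*. The RUNX core was in 14% of 32851 RefSeq promoter windows, the T-box core in 11.8%, the ETS core in 29.5% and AP-1 in 6.75%, so these letters are common, and a match describes the sequence without marking a bound site.

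Crypts were turned into single cells with 3x TrypLE for 1 h, and 4000 to 5000 cells per sample went into 10x Genomics Chromium 3' libraries of version 3 chemistry. The libraries held 58433966, 85525811 and 64355665 unique molecular identifiers (UMIs, each a counted RNA molecule) in the control, KO and rescue, always in that order below. Of 6152, 4786 and 3449 barcodes, 1595, 2036 and 1897 passed the filters, which asked for 500 or more genes and 1000 or more UMIs, and for a mitochondrial share of no more than 20%. A T cell was a kept barcode with a UMI of *Ptprc* (the pan-leukocyte protein CD45) and of *Cd3e*, which gave 914, 186 and 741 cells, or 57.3%, 9.14% and 39.1% of kept barcodes. *Cdc42* itself stood at 257, 385 and 389 CPM (a gene's UMIs in each 1000000 UMIs of the group) in epithelial barcodes, and so was not lower in the KO and rescue than in the control. In the T cells it stood at 414, 446 and 451 CPM. The sources used here do not name the exons removed from the alleles, and 3' tags outside the removed part check nothing. The crypt preparation had no lymphocyte sort, so the share of T cells in a library depends on the preparation as well as on the tissue.

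The T cells held 5065126, 1170064 and 5082557 UMIs, with medians of 5209.5, 4671 and 5056 UMIs and 1982, 1849.5 and 1889 genes per cell. All 7 general T cell markers were detected in each library. *Itgae*, which encodes the CD103 integrin that holds T cells to E-cadherin on epithelium, stood at 472, 475 and 439.7 CPM, and *Cd8a* was found in 87.3%, 82.8% and 81.2% of the cells. *Cd4* was at 4.54, 10.3 and 13.8 CPM. Over all T cells, markers of other leukocytes were low: the macrophage list summed to 8.29, 21.4 and 5.31 CPM, and the list of natural killer and innate lymphoid cells to 22.1, 39.3 and 50.6 CPM, with *Ncr1* and *Klra8* at 0 in the KO. Mast cell markers summed to 131, 463 and 80.3 CPM, 4 of 4 with a UMI in each library. The gate does not show where in the tissue a cell sat, so these are called T cells below. There were 3, 2 and 3 T cell barcodes that another library also listed, and leaving them out moved no member's CPM by more than 4.8%, 2.94% and 1.83%.

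Epithelial RNA was present in the T cells and differed between libraries. The 11 epithelial markers, all detected, summed to 1411, 8588 and 3566 CPM in the T cells, and 27.0%, 34.4% and 19.3% of the T cells held at least 2 *Epcam* UMIs. The 5 Paneth cell markers summed to 1209, 8.55 and 2397 CPM, with *Mptx2* and *Ang4* at 0 in the KO, and the 2 erythroid markers to 475, 31.6 and 25.2 CPM. These levels differ along with every comparison between libraries below, and their part in them was not tested. The 16 genes of the dissociation stress list summed to 6115, 7476 and 8030.4 CPM, and the median mitochondrial share was 6.94%, 9.12% and 8.33%.

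Barcodes were divided by receptor and coreceptor UMIs. *Trdc*-positive cells (with *Trdc* and without *Cd8b1*) numbered 502, 114 and 403, which was 54.9%, 61.3% and 54.4% of T cells. *Cd8b1*-positive cells (with *Cd8b1* and without *Trdc*) numbered 68, 19 and 143, or 7.44%, 10.2% and 19.3%. The other cells, with neither, numbered 335, 51 and 190, or 36.7%, 27.4% and 25.6%, and 9, 2 and 5 barcodes with both were set apart. A class is a matter of detected RNA and not of proven lineage: *Trac*, the alpha constant gene in the same locus, was found in 57.4%, 60.5% and 59.8% of the *Trdc*-positive cells. The other class is mixed as well. *Cd8a* was in 91.6%, 80.4% and 69.5% of it, and *Cd4* in 4.48%, 7.84% and 20.5%. Median depth in the *Trdc*-positive, *Cd8b1*-positive and other cells lay between 4537 and 5345 UMIs in all libraries.

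The 10 genes were a large share of what these cells transcribed. Together they took 4.62%, 3.72% and 3.94% of all UMIs in the T cells, most of it *Gzma* and *Ccl5*. Shares of cells with a UMI depend on depth, so each cell was also thinned to 1000 UMIs. At that depth the median T cell held 4 of the 10 in each library, and 3.28%, 4.30% and 4.32% held none. Epithelial barcodes, defined by *Epcam* without *Ptprc* or *Cd3e* (495, 1577 and 754), held none of the 10 in 88.9%, 98.8% and 95.1% of cases at the same depth.

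**Figure D1:**
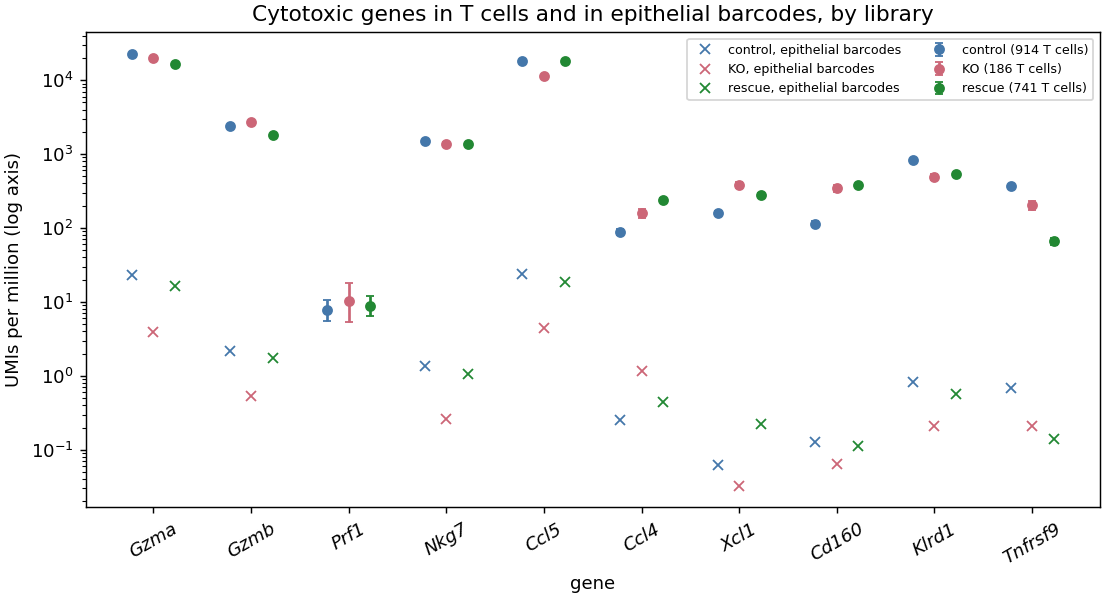
Level of each gene (x axis) in CPM (y axis, log scale) in the T cells of the control, KO and rescue libraries (points, with exact 95% Poisson intervals) and in epithelial barcodes of the same libraries (crosses, no interval). Values of 0 cannot be drawn on this scale and are left out, as for Prf1 in all epithelial barcodes. Gzma and Ccl5 lie highest in every library, and Prf1 lies lowest.

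*Gzma* was the most abundant of the 10 in the T cells of the control and KO, and came after *Ccl5* in those of the rescue. Its level was 22559.8 CPM in the control (95% interval 22429 to 22691), 20233 in the KO (19976 to 20492) and 16779 in the rescue (16666 to 16892). The levels thus lay within 1.34-fold of each other, with the rescue lowest. That order did not hold under every setting: rescue against control ran from 0.613 to 1.004, the latter with a mitochondrial limit of 10%. Rescue against KO ran from 0.610 with the wider *Cd3* gate to 1.14 without barcodes of 2 or more *Epcam* UMIs. At 1000 UMIs per cell it was detected in 74.7%, 64.5% and 62.2% of T cells. Epithelial barcodes held 22.8, 3.88 and 16.4 CPM, and 6.26%, 0.444% and 1.86% of them had a *Gzma* UMI at the same depth. Without thinning the epithelial share with a *Gzma* UMI was 49.3%, 7.48% and 44.2%, at medians of 30635, 39896 and 42898 UMIs. The T cells were shallower, with medians of 5209.5, 4671 and 5056 UMIs, so their unthinned shares are not at like depth. Intervals here cover the counting error of pooled UMIs only, and say nothing of variation between cells or between animals.

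*Gzmb* followed at 2381, 2738 and 1799.9 CPM, and was detected in 62.9%, 62.9% and 52.9% of T cells at 1000 UMIs. The KO was highest and the rescue lowest. *Prf1*, the pore former, was close to the limit of detection, with 39, 12 and 45 UMIs in all T cells. That is 7.70 CPM in the control (5.48 to 10.5), 10.3 in the KO (5.30 to 17.9) and 8.85 in the rescue (6.46 to 11.8). The 3 intervals overlap, and no difference in *Prf1* between the libraries was detectable at this depth. No *Prf1* UMI was found in the epithelial barcodes of any library. Counting 3' ends needs no correction for length, but how well each gene's 3' end was captured was not checked. As counted, *Prf1* UMIs were far fewer than those of either granzyme in all libraries.

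*Nkg7* was nearly even across libraries, at 1514, 1376 and 1381 CPM, and was found in 97.3%, 94.6% and 96.1% of T cells at their own depth. Of the chemokines, *Ccl5* stood at 18202, 11249 and 17922 CPM, and the KO was the low library. It was found in 95.6%, 94.1% and 94.1% of T cells at their own depth. At 1000 UMIs it was in 91.2%, 89.2% and 88.4%, the highest share of the 10 genes in each library. In epithelial barcodes the share with *Ccl5* at 1000 UMIs was 5.86%, 0.634% and 2.79%. *Ccl4* stood at 87.5, 157 and 242 CPM, and *Xcl1* at 161, 379 and 284 CPM. Both were lowest in the control, with *Ccl4* highest in the rescue and *Xcl1* highest in the KO.

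Among the surface receptors, *Cd160* stood at 115 CPM in the control (105 to 124), 344 in the KO (312 to 379.8) and 379.7 in the rescue (363 to 397). The control was low, and the intervals of the other libraries overlap. *Klrd1* ran the other way at 844, 491 and 537 CPM, with the control highest. *Tnfrsf9* stood at 370, 202 and 66.7 CPM, and none of its 3 intervals overlap. It was the gene with the largest spread between libraries. The share of T cells with a *Tnfrsf9* UMI at 1000 UMIs was 25.6%, 16.7% and 6.75%, against 0.202%, 0.127% and 0% of epithelial barcodes.

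A ratio between libraries was called when it was at least 2-fold and its 95% interval excluded 1, over genes with at least 20 UMIs in 1 of the 2 groups. No difference between genotypes could be tested with 1 library each, so a call describes a pair of libraries. In KO against control 2 of the 10 genes were called higher and none lower, where 8.29% of 9858 genes were called higher and 9.27% lower. *Cd160* was 3.01-fold higher in the KO (2.64 to 3.42) and *Xcl1* 2.36-fold higher (2.10 to 2.65). *Ccl4* was 1.80 times the control (1.51 to 2.14), whereas *Tnfrsf9* was 1.84-fold lower (1.60 to 2.11), *Klrd1* 1.72-fold lower and *Ccl5* 1.62-fold lower, all short of the threshold. *Gzma*, *Gzmb* and *Nkg7* had ratios of 0.897, 1.15 and 0.909. The median log2 ratio of the 10 was 0.03, against -0.05 over all genes.

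In rescue against control 2 of the 10 were called higher and 1 lower, where 10.1% of 10476 genes were called higher and 7.44% lower. *Cd160* was 3.32-fold higher in the rescue (3.02 to 3.64) and *Ccl4* 2.76-fold higher (2.48 to 3.09). *Tnfrsf9* was 5.55-fold lower (4.94 to 6.25). *Xcl1* had a ratio of 1.76, short of the threshold, and *Gzma* and *Gzmb* had ratios of 0.744 and 0.756. The median log2 ratio of the 10 was -0.08, against 0.01 over all genes. Both comparisons share the control library, so the high *Cd160* ratio in both rests in part on the same control value.

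In rescue against KO only *Tnfrsf9* was called, 3.02-fold lower in the rescue (2.55 to 3.58), where 5% of 10109 genes were called higher and 4.43% lower. *Ccl5* was 1.59 times and *Ccl4* 1.54 times the KO level. *Cd160* had a ratio of 1.10 (0.990 to 1.23). These counts of members are small, and nothing particular to the 10 genes is read from them.

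The libraries differ in the share of *Cd8b1*-positive cells, so the ratios were also taken within *Trdc*-positive cells, a choice made after the pooled values were seen. In KO against control *Cd160* was 3.16-fold higher (2.66 to 3.74) and *Xcl1* 3.05-fold higher (2.62 to 3.54), and none of the 10 was called lower, where 7.7% of 8557 genes were called higher and 9.19% lower. Short of the threshold, *Tnfrsf9* was 1.93-fold lower (1.65 to 2.27), *Ccl5* 1.71-fold lower (1.67 to 1.75) and *Klrd1* 1.53-fold lower (1.37 to 1.71). In rescue against control *Cd160* was 3.55-fold higher (3.12 to 4.04) and *Xcl1* 2.54-fold higher (2.26 to 2.86), so *Xcl1* passed the threshold here and not in all T cells. *Tnfrsf9* was 4.92-fold lower (4.30 to 5.63). *Ccl4* had a ratio of 1.76 (1.49 to 2.07) and lost its call. Over all genes 11.1% of 9322 were called higher and 7.42% lower in this comparison. In rescue against KO *Tnfrsf9* was 2.55-fold lower (2.09 to 3.09), the only gene called of 9 with enough UMIs, where 4.6% of 8892 genes were called higher and 3.27% lower. The epithelial markers summed to 1196, 8546 and 4139 CPM in the *Trdc*-positive cells, so epithelial RNA differed between libraries within this class too.

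**Figure D2:**
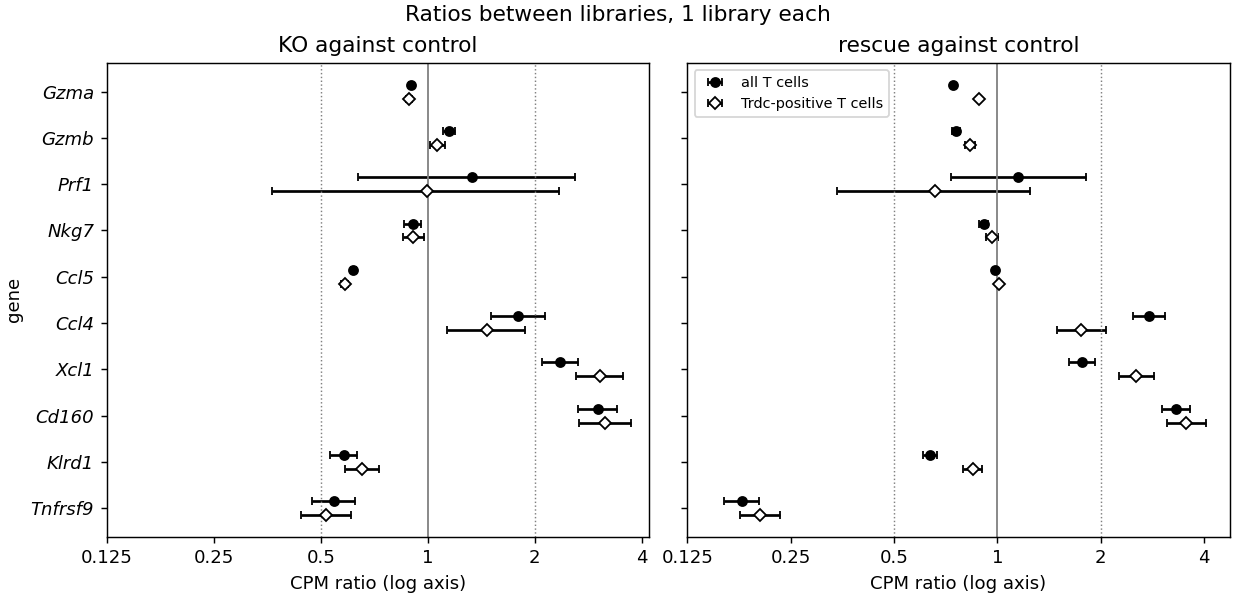
Ratio of CPM (x axis, log scale) for each gene (y axis) in KO against control (left) and rescue against control (right), with exact 95% intervals; filled circles are all T cells and open diamonds are Trdc-positive T cells. Solid lines mark a ratio of 1 and dotted lines 2-fold. Cd160 lies beyond 2-fold in both panels, Xcl1 does so in the KO and in Trdc-positive cells of the rescue, and Tnfrsf9 lies far to the left in the rescue.

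Within a library, *Trdc*-positive cells carried more granzyme RNA than *Cd8b1*-positive cells. In the control *Gzma* was at 24606 against 8045 CPM, a ratio of 3.06 (2.95 to 3.17), and *Gzmb* at 2693 against 831 CPM, a ratio of 3.24 (2.90 to 3.63). *Klrd1* was 2.23-fold higher (1.88 to 2.66) and *Tnfrsf9* 3.72-fold higher (2.79 to 5.05). So 4 of the 10 genes were called higher in *Trdc*-positive cells and none lower, where 5.17% of 8504 genes were called higher and 2.4% lower. *Ccl5* and *Nkg7* had ratios of 1.94 and 1.75, and *Cd160*, *Xcl1* and *Ccl4* ratios of 0.635, 0.716 and 0.796. The median log2 ratio of the 10 was 0.88, against 0.12 over all genes. The 2 classes had medians of 5345 and 5341 UMIs per cell. The dissociation stress genes summed to 5225 CPM in the *Trdc*-positive and 9152 CPM in the *Cd8b1*-positive cells of the control, and to 7845 and 10304.5 CPM in the rescue; their part in the class differences was not tested.

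The same 4 genes, of 9 measured, were called higher in the *Trdc*-positive cells of the rescue and 1 lower, where 6.69% of 8897 genes were called higher and 2.09% lower. *Gzma* was 3.81-fold higher (3.70 to 3.93), *Gzmb* 2.61-fold (2.41 to 2.84), *Klrd1* 5.69-fold (4.61 to 7.09) and *Tnfrsf9* 9.05-fold (4.53 to 21.2). *Ccl4* went the other way, at 145 CPM in *Trdc*-positive and 857 CPM in *Cd8b1*-positive cells, and was 5.91-fold lower in the former (5.22 to 6.70). *Ccl5* and *Nkg7* had ratios of 1.20 and 1.13. *Prf1* had 18 and 17 UMIs, too few to be called. These were 6.33 against 22.0 CPM, a ratio of 0.288 (0.140 to 0.595), below 1 where *Gzma* and *Gzmb* were above it. In the control *Prf1* had 27 and 2 UMIs and a ratio of 1.90 (0.477 to 16.5). In the KO only 19 *Cd8b1*-positive cells were found, so its values are given without calls: *Gzma* was at 21826 against 8819 CPM and *Gzmb* at 2866 against 1514. *Tnfrsf9* was at 238 CPM in *Trdc*-positive cells and had no UMI in the 19 *Cd8b1*-positive cells. The exact interval of its ratio began at 8.02-fold higher in the former and had no upper end. With a floor of 3 counts over the group in place of the missing UMIs, the ratio was 9.97-fold.

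The *Cd8b1*-positive cells of the rescue had more *Ccl4* than those of the control. Its level there was 104 CPM in the control (74.3 to 141), 311 in the KO (221 to 425) and 857 in the rescue (793 to 925), which put rescue against control at 8.27-fold (6.03 to 11.6). The barcode with most *Ccl4* held 19 of the 41 UMIs in the control, 26 of the 39 in the KO and 218 of the 663 in the rescue, so single cells carry much of each level. At 1000 UMIs it was found in 2.94%, 21.1% and 29.4% of these cells. In the same cells macrophage markers summed to 2.53, 104 and 2.59 CPM, led in the KO by *C1qb* and with *C1qc*, *Csf1r* and *Cd68* at 0 there. The epithelial markers summed to 1607, 11273 and 2519.9 CPM. The part of either in the *Ccl4* values was not tested. In *Trdc*-positive cells it spanned 82.5, 121 and 145 CPM, and in other cells 93.2, 187 and 105 CPM. Of the 1229 *Ccl4* UMIs in rescue T cells, 663 came from its *Cd8b1*-positive cells, of which it also had the largest share. *Cd160* was 3.03-fold higher there than in the control (2.34 to 3.98), *Klrd1* 3.02-fold lower (2.30 to 3.97) and *Tnfrsf9* had a ratio of 0.0835 (0.0342 to 0.178), from 8 UMIs in the rescue and 49 in the control. *Gzmb* had a ratio of 1.03 (0.904 to 1.18). In this comparison 2 of 9 measured genes were called higher and 2 lower. Their median log2 ratio was 0.36, against 0.11 over all genes. The share of all genes called is not given here, so nothing particular to the 10 genes is read from these calls. The control had only 68 *Cd8b1*-positive cells.

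In pooled *Gzma* CPM the other cells lay near the *Trdc*-positive ones in the control and KO and between both classes in the rescue, at 22623, 20488 and 13128 CPM. Per cell the KO classes lay farther apart. Its other cells had a median of 47 *Gzma* UMIs and 49.0% over 50, against 113 and 65.8% in its *Trdc*-positive cells. Within the other class the cells with *Cd8a* and without *Cd4* (300, 40 and 126) carried 25778, 23403 and 19655 CPM. The cells with *Cd4* (15, 4 and 39) carried 12069.5, 11747 and 3814 CPM. *Klrd1* was highest of all classes in the other cells of the control, at 1023 CPM, and stood at 518 and 487 CPM in those of the KO and rescue. *Tnfrsf9* followed the library order again, at 281, 194 and 44.7 CPM. Mast cell markers summed to 1582 CPM in the other cells of the KO, led by *Mcpt1*, against 71.6 and 45.4 CPM in the control and rescue. The 51 other cells of the KO thus also held RNA of mast cells. Paneth cell markers summed to 7764 CPM in the other cells of the rescue, led by *Itln1*. They summed to 309 and 235 CPM in its *Trdc*-positive and *Cd8b1*-positive cells. The part of mast and Paneth cell RNA in these values was not tested.

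**Figure D3:**
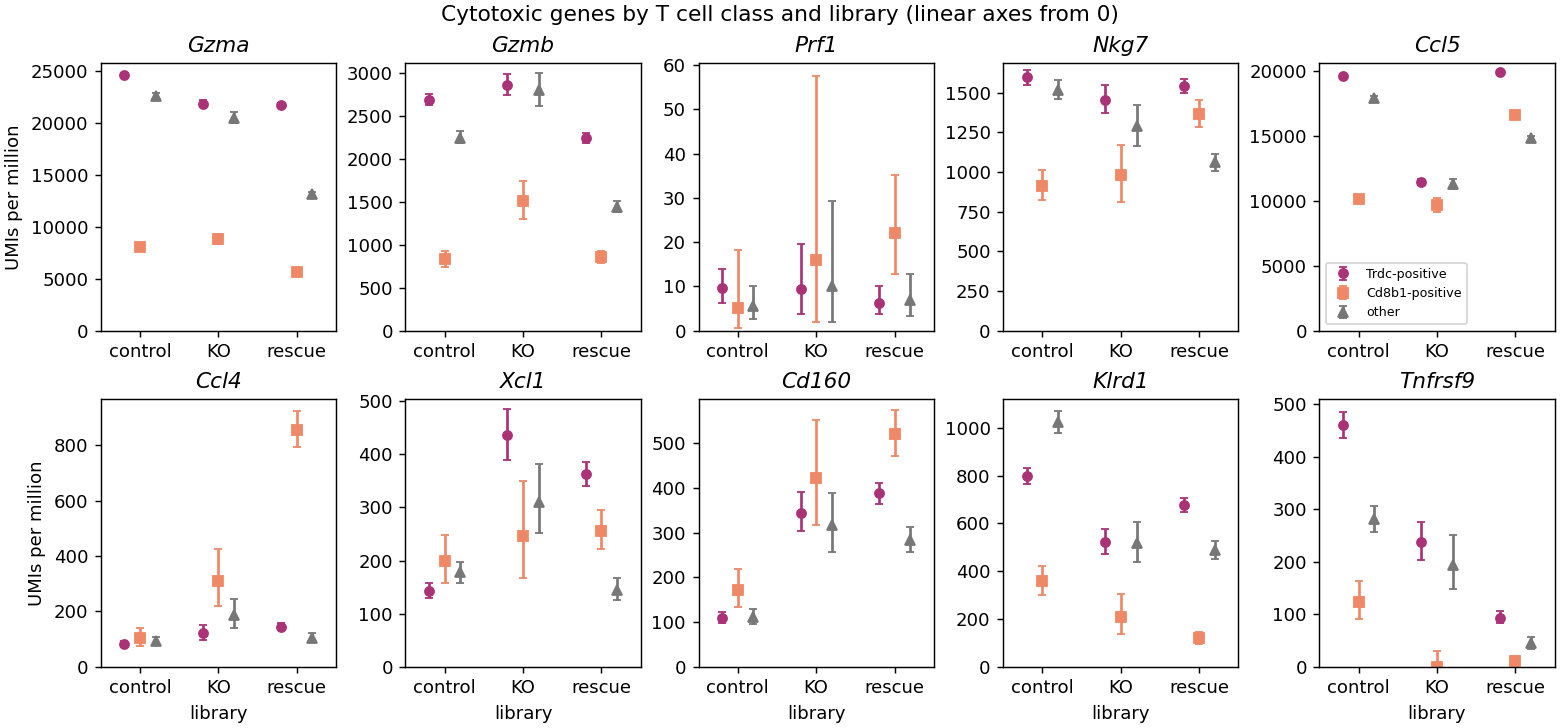
Level of each gene in CPM (y axes, linear from 0, scaled per gene) in Trdc-positive (circles), Cd8b1-positive (squares) and other (triangles) T cells of each library (x axis), with exact 95% Poisson intervals. Gzma and Gzmb are lowest in the Cd8b1-positive cells of every library, and Ccl4 peaks at 857 in those of the rescue.

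*Gzma* was either abundant or scarce in most single cells. In the control 20.1% of T cells had no *Gzma* UMI, 7.11% had 1 to 5, 3.39% had 6 to 50 and 69.4% had more than 50. In the KO these shares were 30.1%, 6.45%, 5.38% and 58.1%, and in the rescue 29.6%, 10.3%, 9.04% and 51.1%. Most cells thus had either over 50 or at most 5. The highest count in a single epithelial barcode was 8, 84 and 19. In *Trdc*-positive cells the middle range of 6 to 50 held only 0.797%, 1.75% and 0.993% of cells. The *Cd8b1*-positive cells were more graded, with 17.6%, 10.5% and 31.5% in that range and 25%, 31.6% and 21.0% over 50. The median *Gzma* count in *Trdc*-positive cells was 148, 113 and 156 UMIs, against 3, 2 and 7 in *Cd8b1*-positive cells.

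**Figure D4:**
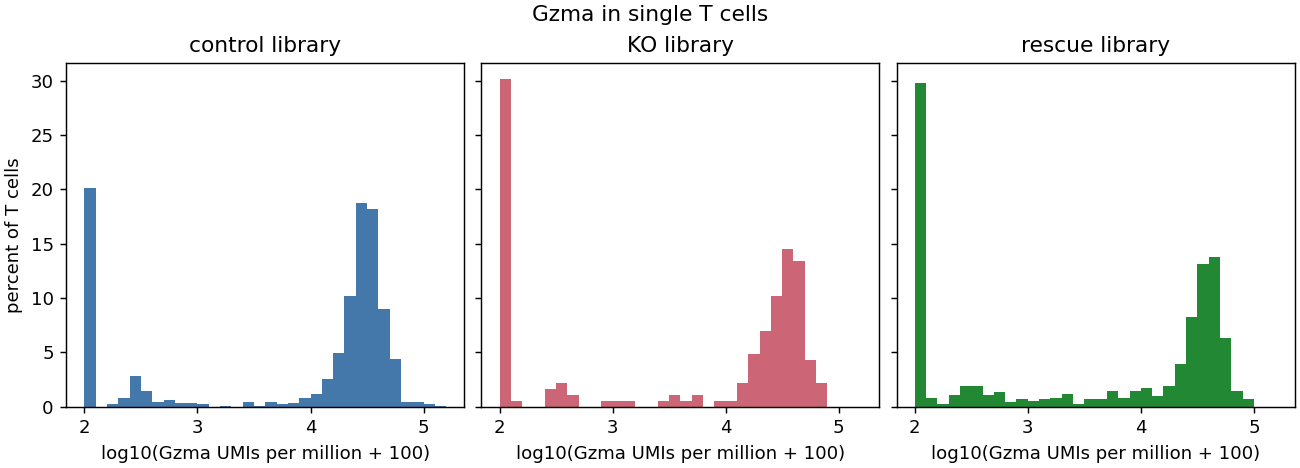
Share of T cells (y axis, percent) by Gzma level (x axis, log10 of Gzma CPM plus 100) in each library. Cells without a Gzma UMI fall in the first bin at 2, and a separate peak of high cells lies to the right in all 3 libraries, with few cells between.

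The granzymes were found in the same cells. At 1000 UMIs *Gzmb* was detected in 84.0% of control T cells with a *Gzma* UMI and in 0.433% of those without (683 and 231 cells). The shares were 91.7% and 10.6% in the KO (120 and 66 cells), and 83.5% and 2.5% in the rescue (461 and 280 cells). Across T cells of a library the correlation of *Gzma* with *Gzmb* was 0.73, 0.85 and 0.79, and with *Ccl5* 0.79, 0.69 and 0.79, over 914, 186 and 741 cells that share a library and a depth of 1000 UMIs. *Klrd1* was likewise found more often beside *Gzma*, in 60.5% against 24.2%, 47.5% against 22.7% and 44.0% against 21.4% of cells. *Xcl1* was the reverse. It was detected in 8.64% of control cells with *Gzma* and 19.9% of those without, in 16.7% and 31.8% in the KO, and in 6.72% and 33.6% in the rescue. *Cd160* was also found less often beside *Gzma*, at 8.93% against 16.5%, 22.5% against 37.9% and 23.6% against 46.4%.

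To describe this within 1 class, *Trdc*-positive cells with at most 5 *Gzma* UMIs (134, 37 and 138 cells) were set beside those with more than 50 (364, 75 and 261 cells). These limits were chosen after the values were seen, and the contrast is a description. *Gzmb* was at 5.83, 61.7 and 10.4 CPM in cells with few *Gzma* UMIs and at 3565, 4455 and 3600.05 CPM in those with many. *Xcl1* was at 291, 682 and 801 CPM in cells with few and at 94.2, 303 and 101 in those with many, and *Cd160* at 208, 597 and 688 against 77.6, 205 and 201 CPM. The higher *Cd160* of the KO and rescue than of the control was thus seen in cells of both kinds. For *Xcl1*, in contrast, rescue and control were close among cells with many *Gzma* UMIs. *Tcf7*, which encodes a transcription factor of naive, memory and progenitor-like T cells, was at 138, 154 and 139 CPM in cells with few *Gzma* UMIs and at 4.26, 0 and 0.566 in those with many. *Tnfrsf9* was lower in cells with few *Gzma* UMIs, at 206, 57.8 and 27.4 CPM against 544, 342 and 134, with the control highest and the rescue lowest in both. *Trdc* itself was at 1077, 983 and 1072 CPM with few and 896, 959 and 1055 with many. Median depth was 4851, 4394 and 5364 UMIs with few and 5494, 4979 and 5324 with many.

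**Figure D5:**
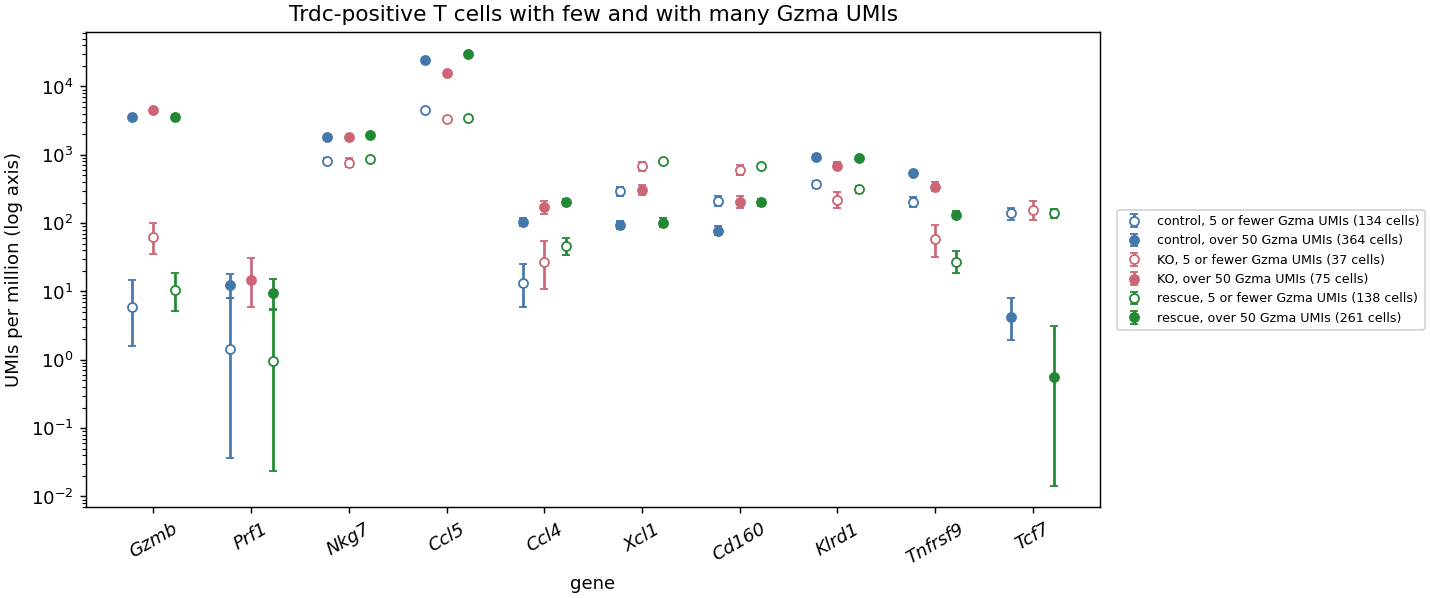
Level in CPM (y axis, log scale) of the other 9 genes and of Tcf7 (x axis) in Trdc-positive T cells with at most 5 Gzma UMIs (open circles) and with more than 50 (filled circles), by library, with exact 95% Poisson intervals. Values of 0 (Prf1 in the KO cells with few Gzma UMIs, Tcf7 in the KO cells with many) cannot be drawn. Xcl1, Cd160 and Tcf7 are higher in the open circles of each library and the other genes in the filled circles.

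Among 1983 other genes detected in at least 5% of the T cells of each library, the ones most like the summed 10 genes from cell to cell were *Cd7*, *Tyrobp* and *Fcer1g*. Their lowest correlations over the 3 libraries were 0.48, 0.46 and 0.40, across T cells thinned to 1000 UMIs. *Cd7* encodes a T cell surface protein, and *Tyrobp* and *Fcer1g* encode signalling adaptors of killer and Fc receptors. Then came *AW112010*, *Rgs1*, *Tmsb4x*, *Cd200r2*, *Ostf1*, *Lag3* and *Ikzf2*, with values from 0.33 down to 0.18. Most of the summed UMIs are those of *Gzma* and *Ccl5*, so the sum mainly follows these genes. *Xcl1* correlated with *Gzma* at -0.17, -0.07 and -0.32 in the control, KO and rescue, and *Cd160* at -0.13, -0.17 and -0.30. All genes of this paragraph share their cells and libraries, so these numbers are descriptions.

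Genes that handle granules or inhibit granzymes were also followed. Of 13 measured genes of granule handling and granzyme inhibition, 1 was called higher and 2 lower in KO against control, beside 8.29% and 9.27% over all genes. *Rab27a*, which docks granules, was 2.44-fold higher (1.29 to 4.47). *Serpinb9* and *Serpinb6b*, which encode granzyme inhibitors, were 3.55-fold (2.89 to 4.40) and 2.67-fold lower (2.31 to 3.11). In rescue against control none of the 13 was higher and 4 were lower, beside 10.1% and 7.44% over all genes, among them *Serpinb9* at 3.58-fold and *Serpinb6b* at 2.79-fold. *Serpinb9* stood at 297, 83.8 and 83.0 CPM in the T cells, so the inhibitor was highest in the control, and *Serpinb6b* stood at 441, 165 and 158 CPM. Of the other granzymes only *Gzmk* and *Gzmc* were measured. *Gzmk* was 2.99-fold higher (2.15 to 4.15) and *Gzmc* 2.16-fold higher (1.18 to 3.85) in the KO than in the control, and neither was called in the rescue, where the ratios were 1.84 and 1.05. How reads shared by *Gzmb* and the neighbouring *Gzmc*, or by *Ccl4* and the like gene *Ccl3*, were assigned is not stated in the sources used here, so the split within these pairs is uncertain.

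The same shares over all genes apply to the lists that follow, and 1 gene of 12 is near them. Among killer receptors and their adaptors, 2 of 12 measured were called higher and 2 lower in KO against control, and 6 of 16 higher and 3 lower in rescue against control. *Cd226*, an activating adhesion receptor, was 5.77-fold (3.96 to 8.47) and 7.72-fold higher (5.76 to 10.5), and *Klre1* was 2.58-fold and 2.60-fold lower. Of the chemokines and their receptors 2 of 7 were higher in the KO, among them *Ccr9*, and 4 of 8 were higher and 1 lower in the rescue. *Ccr9*, the receptor that guides lymphocytes to the small intestine, was at 44.4, 132 and 131 CPM. *Ccl9* had 1.58 CPM in control and 32.5 CPM in rescue cells. Of the tissue residence genes 1 of 12 was lower and none higher in each comparison, *Gpr55*, at 466, 129 and 90.9 CPM. Of the effector transcription factors, 1 of 6 was lower in the KO and 1 higher and 1 lower in the rescue, with *Zeb2* at 94.6, 42.7 and 25.8 CPM and *Runx3* at 144, 258 and 299 CPM.

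The list of activation and inhibitory receptors had 3 of 15 genes lower and none higher in the KO, and 2 higher and 2 lower in the rescue. *Nr4a3*, an early gene of receptor signalling, was at 188, 45.3 and 58.6 CPM and so was highest in the control, as *Tnfrsf9* was. Cycling genes were called higher in 7 of 8 in the KO and 6 of 8 in the rescue, with median log2 ratios of 2.14 and 2.11. *Mki67*, a marker of dividing cells, was at 16.2, 161 and 71.6 CPM. At their own depth, 4.82%, 5.88% and 7.80% of T cells with at most 5 *Gzma* UMIs had it. Among T cells with more than 50 *Gzma* UMIs the shares were 4.73%, 13.0% and 6.86%. The shares thus differed less between libraries than the CPM. In the KO, 66 *Mki67* UMIs came from 5.88% of the 68 T cells with at most 5 *Gzma* UMIs, so few cells carry much of its level. Dividing epithelial cells express the cycling list too, and the epithelial markers were also higher in the KO and rescue. Their part in the cycling values was not tested. Of the dissociation stress genes 5 of 16 were higher and 3 lower in the KO and 2 of 16 higher in the rescue, led by *Hspa1a* at 61.2, 1085 and 384 CPM. Interferon genes had none of 9 called in the KO and 1 of 10 in the rescue. Of naive and circulating genes 2 of 7 were higher and 2 lower in the KO and 3 of 8 higher and 2 lower in the rescue, and of death ligands and cytokines 2 of 6 were higher and 1 lower in the KO and 3 of 7 higher in the rescue, with *Ltb* at 45.6, 159.8 and 163 CPM.

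The lists were also compared between the classes, where 5.17% of all genes were called higher and 2.4% lower in the control, and 6.69% and 2.09% in the rescue. Of killer receptors and adaptors 5 of 10 measured were higher and 1 lower in *Trdc*-positive than in *Cd8b1*-positive cells of the control, and 7 of 14 higher and 1 lower in those of the rescue. *Tyrobp* was 5.83-fold (4.73 to 7.28) and 24.6-fold higher (18.3 to 33.7), and *Cd226* was 4.33-fold and 4.69-fold lower. Of the tissue residence genes 3 of 11 were higher in the control, and 3 of 12 higher and 1 lower in the rescue, with *Cd7* 3.06-fold and 2.90-fold higher. *Gzmk* ran against *Gzma* and *Gzmb*, as it was 2.94-fold and 13.1-fold lower in *Trdc*-positive cells. *Ifng*, the gene of interferon gamma, was 3.88-fold and 22.0-fold lower there, with 22 and 12 UMIs in the control and 17 and 102 in the rescue. Naive and circulating genes were called lower in 3 of 5 and 2 of 4, among them *Il7r*, the interleukin 7 receptor, at 7.97-fold and 16.5-fold lower. *Icos* and *Cd28* lay lower in the *Trdc*-positive cells too, and *Lag3*, an inhibitory receptor, was 3.27-fold and 5.89-fold higher, in an activation list with 2 of 11 higher and 4 lower in the control and 2 of 14 higher and 5 lower in the rescue.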

How the data were processed

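Per the file headers the deposited matrices were written by Cell Ranger 3.0.2 (control, KO) and 3.1.0 (rescue), and the submitters' processing notes name 1.3.0. They hold UMI counts per gene and barcode as deposited by the authors. The sources used here do not name the genome build. GENCODE vM21 held 98.77% of the 28692 identifiers. UMIs were summed over the cells of a class in a library and given as CPM with exact Poisson 95% intervals. Ratios have conditional exact binomial intervals, shares exact Clopper-Pearson ones, and log2 ratios a pseudocount of 1 CPM. Cells were thinned without replacement to 1000 UMIs. Doublets were kept, and removal was an alternative. Ratios and calls were run on simulated Poisson counts with known folds. These counts hold no variation between cells, so they check the computation only. Groups follow the labels, with 1 library each, so no test was made. The rule for named genes took the 10 members, list genes with at least 20 UMIs in 1 compared group (the 2 highest and 2 lowest as examples) beside their list's counts, and the 10 genes most like the members. Several list and marker genes outside the highest and lowest were named after their values were seen. The members and lists were chosen with earlier results of these data known. *Trgc1*, *Trgc2*, *Trgc4* and *Trgv7* were not analysed here. Some marker and list genes are not reported here. Python 3.11.15, NumPy 2.4.6, SciPy 1.17.1, pandas 2.3.3, scikit-learn 1.9.0 and Matplotlib 3.10.9 were used.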

Additional observations from a re-analysis of the deposited data

Results flagged for a closer look

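*Xcl1* ran in opposite directions between the classes in the control and the rescue. Its ratio of *Trdc*-positive to *Cd8b1*-positive cells was 0.716 (0.561 to 0.923) for the control library, against 1.417 for the rescue (1.22 to 1.66). Its level in *Trdc*-positive cells was 143 and 363 CPM in these libraries, and in *Cd8b1*-positive cells 199.6 and 256 CPM, from 79 and 198 UMIs. In the KO the ratio was 1.76 (1.22 to 2.64), above 1 as in the rescue, from only 19 *Cd8b1*-positive cells. The difference between the libraries was not tested, as each is a single library, and neither ratio passed 2-fold.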

How the results depend on the processing

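The alternatives gave 909 values of 184 results. No ratio called in the main run reversed its direction, and only such ratios could be scored as reversed. Ratios without a call could cross 1. *Nkg7* in KO against control ran from 0.909 to 1.07, and *Cd160* in rescue against KO from 0.739 to 1.31. Of the 909 values 524 were scored as the same as in the main run and 385 as moved. They include counts of called genes, which have no direction to reverse and no counting error. The scores are thus not all a matter of counting error. The number of genes called in KO against control, 2 at first, was 4 with cells thinned to 1000 UMIs and 6 at a threshold of 1.5-fold. In rescue against control it was 5 in place of 3 at 1.5-fold. In rescue against KO it was 2 in place of 1 with a gate of 2 UMIs over *Cd3d*, *Cd3e* and *Cd3g*, 2 without barcodes of 2 or more *Epcam* UMIs, and 4 at 1.5-fold. Between *Trdc*-positive and *Cd8b1*-positive cells of the control it was 7 in place of 4 at 1.5-fold. The looser threshold calls more by construction, and the cause of the other changes was not tested. Over all alternatives *Cd160* in KO against control ran from 2.99 to 3.58, *Xcl1* from 2.36 to 3.05 and *Tnfrsf9* from 0.453 to 0.664. In rescue against control *Cd160* ran from 2.64 to 4.11, *Tnfrsf9* from 0.146 to 0.260, and *Ccl4* from 1.76 to 3.70, the lowest in *Trdc*-positive cells alone. Scored doublets were 20, 33 and 29, of which 18, 2 and 18 were T cells. No paired analysis was possible because each group has 1 library. Depth limits *Prf1* most, with 39, 12 and 45 UMIs in all T cells.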
